A study of Mus musculus with 15 samples.

Results

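The genes described here encode the nuclear subunits and some assembly factors of the mitochondrial respiratory chain (complexes I to IV) and of ATP synthase. Members were the genes on chip types A, B and C with a probe set whose annotation gave exactly 1 symbol beginning with Nduf, Cox4 to Cox8, Atp5 or Uqcr, or equal to Sdha, Sdhb, Sdhc or Sdhd. This took 145 probe sets of 80 genes, out of 36701 probe sets and 15964 genes with 1 symbol. Where a gene had several probe sets, the one brightest on average across the 5 treatments was used. Of the 80 genes, 60 reached 4 times the median of their chip type in at least 1 treatment and are described below, and 20 did not. The study used A.E7, a mouse CD4 T helper clone, so every group carries the features of 1 clone. The groups were mock treatment; anti-TCR stimulation alone, which the array titles call anergic; and anti-TCR with 1 of 3 inhibitor treatments. These were CSA (cyclosporin A, which blocks calcineurin), PKCi (a protein kinase C inhibitor the labels do not name further) and Combo (rapamycin against mTOR, PD98059 against MEK and SB203580 against p38). Each treatment gave 1 RNA pool from 2, 4 and 6 h, hybridised to a single array of every chip type, 15 arrays in all.

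As background, complex I oxidises NADH and complex II oxidises succinate, and both pass electrons to ubiquinone. Complex III moves them on to cytochrome c, and complex IV passes them to oxygen. The proton gradient that complexes I, III and IV build drives ATP synthase. Resting T cells rely on this machinery, and activated T cells turn strongly to glycolysis while also building more mitochondria. The transcription factors NRF1, GABPA (an ETS factor) and YY1 are known regulators of the nuclear genes of the chain.

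With no replicate arrays there is no test, no SD over cultures and no p-value in what follows, and these single arrays set the precision. Values are array intensities as deposited. Values under the chip median (51.1 on A, 69.5 on B and 55 on C) were raised to it before log2 ratios were taken, and a gene counts as measured in a comparison when its brighter value reached 4 times that median. The words rose and fell are kept for genes 2-fold or more apart. Of the 60 genes, 45 were read on chip A, 5 on chip B and 10 on chip C, and 46 reached the minimum in all 5 treatments. For 17 of them the probe set name carries a suffix (f, g, i, r or s) that marks shared sequence or a relaxed probe design, and such genes are marked below. Of 9 T helper markers on the arrays 8 reached the minimum, among them Cd4 (597.5 to 879.6), while Cd5 read at most 12.1. None of the 4 B cell, 4 CD8 T and NK cell and 1 erythroid markers did, and Cd8a lay between 2.6 and 7.5. Of 7 macrophage and dendritic cell markers 1 did, Cd14 (203 to 293), and their summed level lay between 326 and 507.

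Stimulation through the receptor is read by setting anti-TCR alone against mock. Complex I genes mostly read lower after stimulation, whereas the complex IV genes lay on both sides of it with a median near 0. Of 58 members measured, 9 were 2-fold or more apart (beside 25.3 percent of all 5803 genes measured): 8 fell (13.8%, beside 13.9 percent) and 1 rose (1.72%, beside 11.4 percent). The share that fell is at the background and is no result about the members, and with median scaling 5 in place of 9 were that far apart. The difference from all genes lay below the 2-fold size, and was not tested. The log2 ratio was below 0 for 43 of 58 members (74.1%) and for 54.5% of all measured genes. The median log2 ratio of the members was -0.39 (quartiles -0.78 and 0.06, range -1.40 to 1.08), beside -0.08 for all genes (quartiles -0.60 and 0.41). With a size rule of 1.5-fold, added after the data were seen, 22 of 58 members were lower (37.9%, beside 25.6 percent of all genes) and 2 were higher (3.45%, beside 19.6 percent). In bulk RNA, fewer expressing cells and less RNA per cell cannot be told apart, and each intensity is relative to the rest of the RNA on its array.

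The lower readings were seen with other minimum levels too. Over all 80 genes with no filter 49 read lower and 24 higher, with a median of -0.16, and 7 had both values raised to the chip median. Of all 15964 genes 6010 read lower and 4988 higher. The other 4966 had both values raised to the chip median, and these ties put the median of all genes at 0. Among the 55 genes whose mean over the 5 treatments reached the minimum, the median was -0.41, beside -0.07 for 5130 genes chosen the same way. By chip type the median was -0.44 for 44 members on chip A, -0.41 for 4 on chip B and -0.10 for 10 on chip C. All genes of those chips had -0.14, -0.09 and -0.01, so on chip C the members lay near all genes. The chip types read different genes in the same RNA pools and are not replicates. On chip A the brightest values differed between arrays (99th percentile 2717 with mock, 2458 with anti-TCR, 2202 with CSA, 1864 with PKCi and 2230 with Combo). After quantile normalization, which gives the arrays of a chip type the same distribution, the members' median was -0.36.

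**Figure D1:**
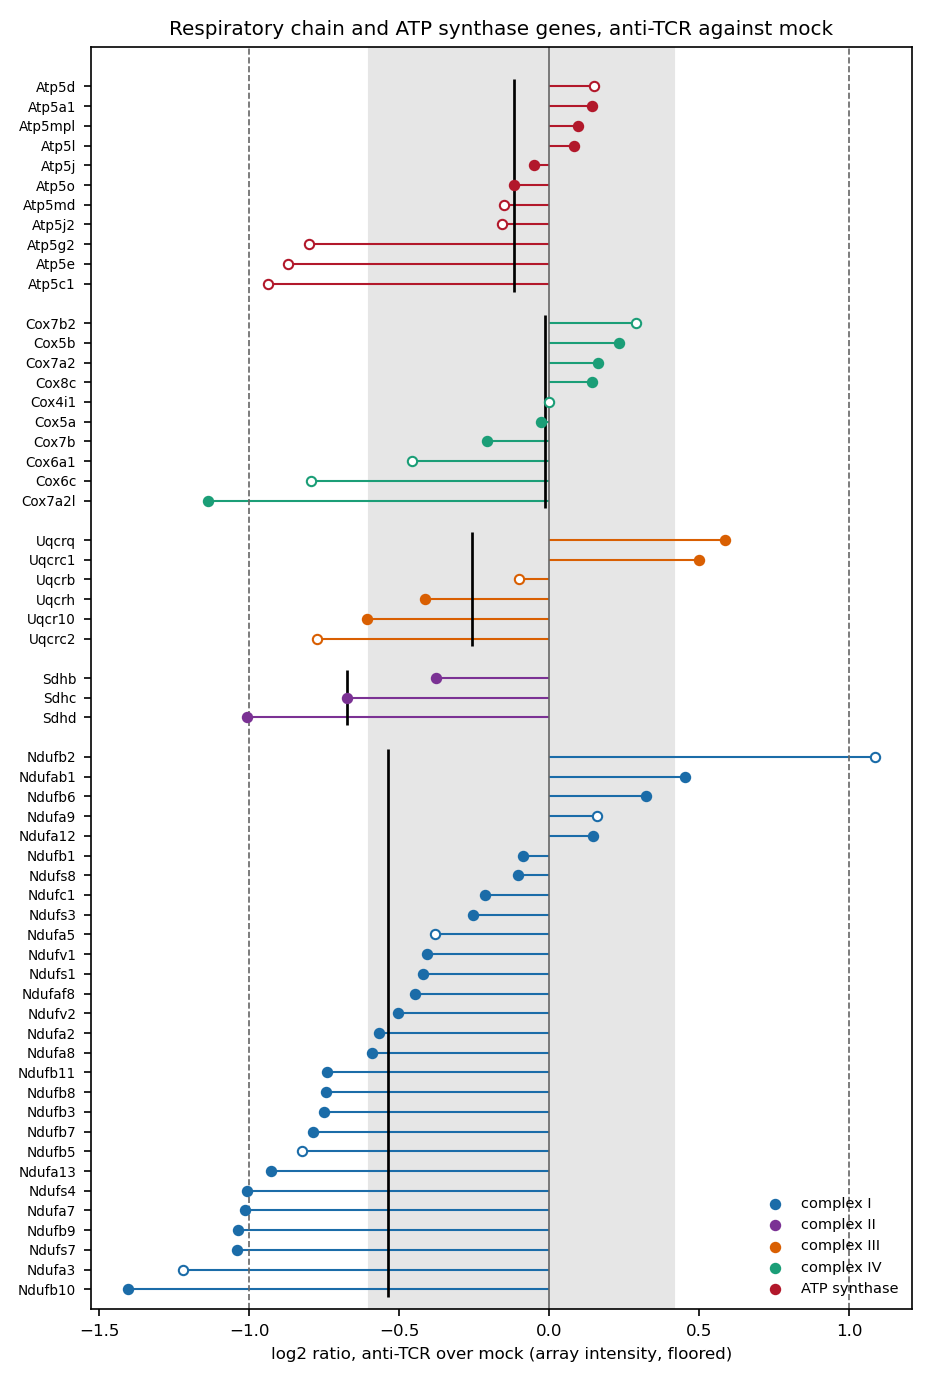
Log2 ratio of anti-TCR over mock for the 58 measured members, grouped by complex. Open points mark suffixed probe sets, black bars the median of a complex, the grey band the quartiles of all measured genes and dashed lines 2-fold; most complex I genes lie left of 0, down to Ndufb10 at -1.40, while the complex IV median is -0.01.

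Among complex I genes, 23 of 28 measured read lower with anti-TCR, 6 of them fell (21.4%, beside 13.9 percent of all genes) and 1 rose (3.57%, beside 11.4 percent), with a median log2 ratio of -0.54. Of all measured genes 54.5% read lower. The complex I median lay between -0.58 and -0.46 over all alternatives tried, and 12 of the 16 genes that reached 8 times the chip median read lower. The excess of falls was less stable: with median scaling Ndufa7, Ndufb9 and Ndufs4 no longer fell. The share of complex I genes that fell was then not above that of all genes (742 of 5783). Ndufa8, Ndufa13, Ndufb3, Ndufb8, Ndufb10 and Ndufs4 read under the minimum with anti-TCR. In this comparison they were measured through mock alone. The core subunits, which carry the flavin and iron-sulfur clusters and the quinone site, all read lower, 6 of 6, with a median of -0.41. Ndufs7, the core iron-sulfur protein next to the quinone site, read 2704 with mock, 1313.5 with anti-TCR, 1409.9 with CSA, 1887 with PKCi and 1763 with Combo. It fell 2.06-fold with anti-TCR, and no stimulated array reached its mock value. The other core genes stayed within 2-fold of mock after anti-TCR: Ndufv2 (log2 ratio -0.51), Ndufs1 (-0.42), Ndufv1 (-0.41), which encodes the NADH-binding subunit, Ndufs3 (-0.25) and Ndufs8 (-0.11). Ndufs8, an iron-sulfur protein of the same arm, varied least of all 60 genes over the treatments, with 1922 for mock and 1686 for CSA as its extremes (1.14-fold).

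The accessory subunits of complex I surround the core and hold its modules together. Of 21 measured, 16 read lower, 5 of which fell (23.8%, beside the same 13.9 percent), and the median was -0.74. Ndufb10, a membrane arm subunit, read 397 with mock, 149.9 with anti-TCR, 238 with CSA, 286 with PKCi and 372 with Combo. It fell 2.65-fold with anti-TCR, the largest fall of any member, and the 3 inhibitor arms lay between the anti-TCR and mock values. Its anti-TCR value lay under the minimum of chip A, 204.4. Ndufa3, on an f-suffixed probe set, fell 2.33-fold from 828 to 356, and read 530.3, 641 and 535 in the CSA, PKCi and Combo arms. Ndufb9 fell 2.05-fold, from 535 to 261, with 418, 396 and 402 in those arms. For both genes mock was highest and anti-TCR lowest, while the inhibitor arms came in a different order. Ndufa7 fell 2.02-fold, from 1585 to 785, and read 1064, 1122 and 1313.5 with the inhibitors. Ndufs4, an accessory subunit needed for a stable NADH-oxidising arm, fell 2.01-fold, from 351 to 175, and read 213 with CSA, 265 with PKCi and 148 with Combo. Unlike the other genes that fell, it was lowest in the Combo arm. The calls of Ndufa7, Ndufb9, Ndufs4 and Sdhd lie so close to 2-fold that scaling the arrays to a common median takes all 4 below it. The share of accessory genes that fell is then not above that of all genes either.

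Of the accessory genes short of the size rule, Ndufa13 read -0.93, Ndufb5 -0.82 (f-suffixed), Ndufb7 -0.79, Ndufb3 -0.75, and Ndufb8 and Ndufb11 both -0.74. Ndufb2 was the member that rose. On an r-suffixed probe set it read 569.7 with mock, 1208 with anti-TCR, 816.5 with CSA, 902 with PKCi and 552 with Combo. Only the anti-TCR array was 2-fold above mock (2.12-fold), and a second bright probe set of the gene, f-suffixed, gave a log2 ratio of 0.17 in place of 1.08. Ndufab1, the mitochondrial acyl carrier protein, which also serves lipoic acid synthesis, read 528 with mock and between 722 and 759 in the 4 stimulated arms (log2 ratio 0.45 with anti-TCR, and 0.04 on a second probe set). Of 7 assembly factors named Ndufaf on the arrays, 2 reached the minimum, and Ndufaf8 read 1138 with mock and 835 with anti-TCR (-0.45).

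Promoters of 5 of the 9 genes past 2-fold with anti-TCR are printed, so that the presence or absence of motifs of known regulators can be read in the sequence. They were chosen after the values were seen: Ndufb10 for the largest fall, Ndufs7, Ndufs4 and Sdhd as fallen genes that hold a motif, and Ndufb2 as the gene that rose. Sequences are from RefSeq (build GRCm38.p6), from 250 bases before to 50 after the annotated start, 5′ to 3′ along the gene's strand, with motif matches in capitals.
Ndufb10 promoter, chr17:24724374-24724673, minus strand: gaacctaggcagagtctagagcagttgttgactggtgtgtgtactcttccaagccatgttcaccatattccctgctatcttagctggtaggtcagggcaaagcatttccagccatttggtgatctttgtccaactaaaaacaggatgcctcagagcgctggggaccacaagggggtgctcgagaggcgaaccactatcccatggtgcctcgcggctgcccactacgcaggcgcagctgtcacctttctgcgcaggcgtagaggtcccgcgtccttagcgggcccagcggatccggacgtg
Ndufs7 promoter, chr10:80249199-80249498, plus strand: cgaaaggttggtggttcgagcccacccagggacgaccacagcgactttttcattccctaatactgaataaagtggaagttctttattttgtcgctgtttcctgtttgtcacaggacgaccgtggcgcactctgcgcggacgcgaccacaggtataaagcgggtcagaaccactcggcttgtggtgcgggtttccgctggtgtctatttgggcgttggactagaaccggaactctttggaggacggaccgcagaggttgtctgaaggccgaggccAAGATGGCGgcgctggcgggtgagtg
Ndufs4 promoter, chr13:114388045-114388344, minus strand: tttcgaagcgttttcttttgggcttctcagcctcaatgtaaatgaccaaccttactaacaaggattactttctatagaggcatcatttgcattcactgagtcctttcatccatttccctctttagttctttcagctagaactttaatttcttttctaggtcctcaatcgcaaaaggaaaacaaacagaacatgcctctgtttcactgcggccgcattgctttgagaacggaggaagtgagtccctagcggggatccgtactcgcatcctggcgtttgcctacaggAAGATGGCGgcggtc
Sdhd promoter, chr9:50603800-50604099, minus strand: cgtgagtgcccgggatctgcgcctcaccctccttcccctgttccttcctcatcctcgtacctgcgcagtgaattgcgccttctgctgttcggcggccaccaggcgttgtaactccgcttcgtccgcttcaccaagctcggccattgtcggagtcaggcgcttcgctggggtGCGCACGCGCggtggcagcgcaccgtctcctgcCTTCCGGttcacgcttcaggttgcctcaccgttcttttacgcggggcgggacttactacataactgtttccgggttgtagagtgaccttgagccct
Ndufb2 promoter, chr6:39592315-39592614, plus strand: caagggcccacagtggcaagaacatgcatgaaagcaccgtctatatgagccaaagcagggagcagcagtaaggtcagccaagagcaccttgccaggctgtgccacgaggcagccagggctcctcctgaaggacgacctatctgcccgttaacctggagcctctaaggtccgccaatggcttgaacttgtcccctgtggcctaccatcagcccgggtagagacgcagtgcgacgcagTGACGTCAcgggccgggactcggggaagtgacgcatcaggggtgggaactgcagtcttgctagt

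The motifs were searched on both strands, and no matches overlapped within these promoters. They were the NRF1 consensus, which has 1 open position, CCGGAAG for ETS factors, AAGATGGCG for YY1 and the cyclic AMP response element TGACGTCA. Ndufs7 and Ndufs4 each hold the YY1 letters just after the start, Sdhd holds the NRF1 letters and the ETS letters, the latter as CTTCCGG on the other strand, and Ndufb2 holds TGACGTCA. Ndufb10 holds none of the 4. Of the 9 genes past 2-fold 8 had a promoter in the table, and 4 of these held a match. The share of all genes that hold any of the 4 motifs was not computed, so this count has no background beside it. Over the 48 of 60 members with a promoter there, the YY1 letters were in 7 (14.6%), beside 4.09% of 5165 measured genes and 1.4% of all 32851 promoters. The ETS letters were in 14 (29.2%, beside 21.4% and 8.86%), the NRF1 letters in 8 (16.7%, beside 12.7% and 4.6%), and the TGACGTCA element in 1 (2.08%, beside 3.5% and 1.79%). Member and gene shares count a gene once over all its listed starts. A match of letters describes the sequence and does not show binding.

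All 3 measured complex II genes read lower with anti-TCR. Sdhd, a membrane anchor of succinate dehydrogenase, read 470.3 with mock, 234 with anti-TCR, 321 with CSA, 235 with PKCi and 289 with Combo. It fell 2.01-fold with anti-TCR, and the PKCi array read the same low level. Sdhc, the other anchor, read 432 with mock and 270.4 with anti-TCR (-0.68), with 381 to 397 in the inhibitor arms. Sdhb, the iron-sulfur subunit, read 764 with mock, 588 with anti-TCR and 871 with CSA. The flavoprotein gene Sdha lay between 27.7 and 60.6 and did not reach the minimum; whether its probe set detects the transcript was not tested.

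Complex III genes split. Of 6 measured with anti-TCR, 4 read lower and 2 higher, with a median of -0.26 and none past 2-fold. Without suffixed probe sets the median turned to 0.04 (2 of 4 lower), and at 8 times the chip median it was -0.41 (3 of 5 lower). Uqcrc2, a core subunit, read 1415 with mock, 827 with anti-TCR, 904 with CSA, 935 with PKCi and 627 with Combo on an f-suffixed probe set. Its partner Uqcrc1 went the other way, with 355, 501, 431, 758 and 809.5 in the same order, so that mock was its lowest array. Against mock, Uqcrc1 rose 2.14-fold in the PKCi arm and 2.28-fold in the Combo arm, while Uqcrc2 fell 2.26-fold in the Combo arm. Uqcrq, a small accessory subunit, read 1360.4 with mock and 2042 with anti-TCR (0.59), and Uqcr10 read 726 and 476.5 (-0.61). Uqcr11 was under the minimum in every array but Combo.

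Complex IV is cytochrome c oxidase, and its genes had no common direction with anti-TCR. Of 10 nuclear-encoded subunit genes measured, 6 read lower with anti-TCR and 1 of them fell, and the median of -0.01 turned to 0.03 with median scaling and to 0.06 without suffixed probe sets. It was -0.03 with quantile normalization and with the geometric mean of probe sets, and -0.12 (5 of 8 lower) at 8 times the chip median. Cox4i1 (f-suffixed), a gene of the regulatory subunit, read 392.9 with mock and 392.8 with anti-TCR. Cox5a, on chip C, read 5059 with mock, 4960 with anti-TCR and between 5524 and 6163 with the inhibitors, a spread of 1.24-fold over all 5 arrays. Other bright members read lower: Cox6c, a small subunit, read 2717 with mock and 1568 with anti-TCR (-0.79, f-suffixed), and Cox6a1 read 3566 and 2598 (-0.46, f-suffixed), with 0.20 on a second, dimmer probe set. Cox5b read 723, 849, 1188, 913 and 550.0, highest with CSA and lowest with Combo. The gene that fell was Cox7a2l, which encodes a factor that joins complexes III and IV into supercomplexes. It read 659 with mock, 299 with anti-TCR, 436.5 with CSA, 587 with PKCi and 694 with Combo. Its fall with anti-TCR was 2.20-fold, and the Combo array was back at the mock level. Its relative Cox7a2, a subunit of the oxidase, read 783, 877, 815, 563.5 and 576, with PKCi and Combo lowest.

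Isoforms known from other tissues were mostly dark. The muscle forms Cox6a2 (at most 37.8) and Cox7a1 (at most 7.0) did not reach the minimum, nor did Cox8b, a muscle form, which reached 3.17 times its chip median on an r-suffixed probe set. Of the testis forms, Cox6b2 stayed under the minimum, while Cox7b2 (i-suffixed, 185 to 251) and Cox8c (384 to 548) passed it. Of the 5 probe sets annotated to Cox8c, that 1 passed and the others read at most 203. Of 5 muscle markers 1 passed, Ckm (163 to 284.5, r-suffixed). The ubiquitous form Cox8a read 2.2 to 16.5, and Cox6b1 reached 185 at most (r-suffixed); whether these probe sets detect their transcripts was not tested. Cox4i2, Ndufa4, Ndufa4l2, the c ring gene Atp5g3, Atp5b, Uqcrfs1 and the subunits encoded in mitochondrial DNA were not analysed here.

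ATP synthase genes split into a level group and a lower group. Of 11 measured, 7 read lower with anti-TCR and 0 passed 2-fold. Their median of -0.12 became -0.005 with median scaling and 0.02 without suffixed probe sets. Atp5c1, the central shaft subunit gamma, read 1800.0 with mock and 940.2 with anti-TCR (-0.94, g-suffixed), and 1208, 1102 and 1312 with the inhibitors. A second probe set of Atp5c1 gave -0.43. Atp5e, the epsilon subunit of the shaft, read 206 and 113 (-0.87, i-suffixed) and passed the minimum with mock alone. Atp5g2, which encodes the proton-carrying c ring subunit, read 363 and 208 (-0.80, i-suffixed), and a second probe set on another chip gave -0.85. On both probe sets the anti-TCR value of Atp5g2 lay under the minimum. Its sister gene Atp5g1 stayed under the minimum (at most 124.5). On the probe sets used, the other 8 genes stayed within -0.16 and 0.15. Among them was the catalytic head subunit Atp5a1, which read 1409.4 with mock, 1556 with anti-TCR, 1239 with CSA, 1393 with PKCi and 1423.5 with Combo. Atp5d, the delta subunit, read 238 with mock, 264 with anti-TCR and 429, 383 and 283 with the inhibitors on an f-suffixed probe set, so that CSA was its highest array. Its other bright probe sets, dimmer and f-suffixed, gave 0.34 and 0.53 for anti-TCR over mock. On the latter both of these values lay under the minimum.

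Members with more than 1 bright probe set give the only view of technical spread. There were 11 such genes, and with anti-TCR the log2 ratios of 7 had 1 sign on all their bright probe sets while Cox6a1, Cox7a2, Ndufa9 and Ndufc1 changed sign between them. In that comparison the median distance between probe sets of a gene was 0.40, and the largest 0.92 (Ndufb2). For the inhibitor arms against anti-TCR, the sign changed between probe sets in 5 of the 11 genes with CSA, 7 with PKCi and 3 with Combo. Over 7 pairs of member probe sets on different chip types the technical SD of the log2 ratio was 0.28, and over 1150 such pairs of all genes 0.75. Ratios of single members nearer to 0 than such distances have an unsure sign. The probe sets read the same RNA pools, so the distances hold no spread between cultures. A ratio further from 0 is therefore not made sure by them. None of the 8 genes that fell had a second bright probe set.

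**Figure D2:**
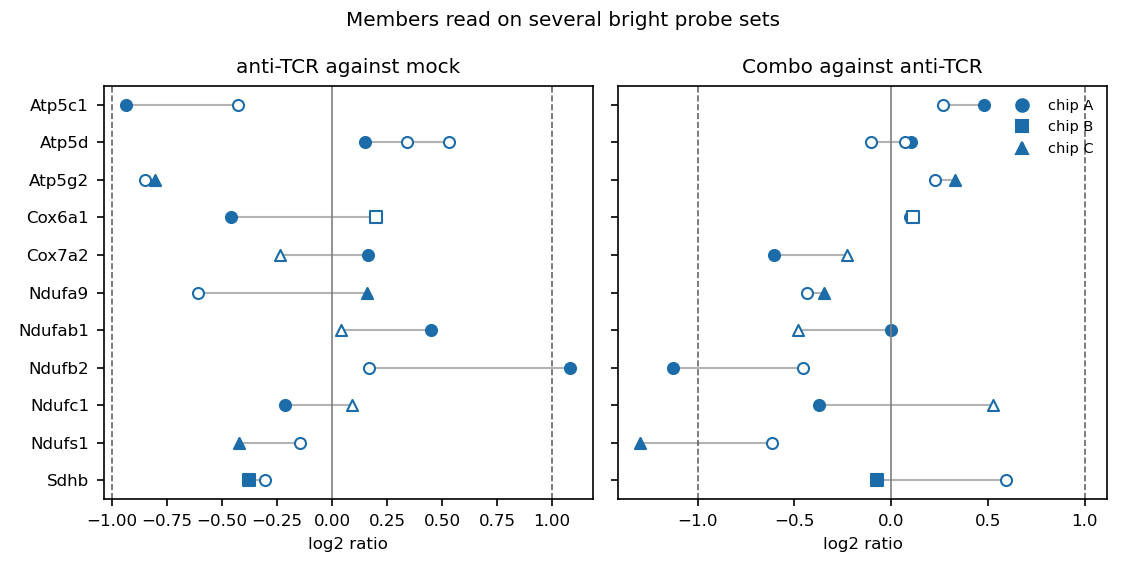
Log2 ratios of the 11 members with 2 or more probe sets that reached the minimum in some treatment, for anti-TCR over mock (left) and Combo over anti-TCR (right). Filled symbols mark the probe set used, shapes the chip type and dashed lines 2-fold; Ndufb2 lies 0.92 apart on the left, and Ndufc1 0.90 apart on the right.

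The other comparisons set each inhibitor arm against anti-TCR alone and ask which changes depend on calcineurin, protein kinase C or the 3 kinases. All 3 share the anti-TCR array with each other and with the first comparison, so a low value on that array makes them all read higher, and the values are given side by side without a test of overlap. In the CSA arm 1 of 56 measured members was 2-fold or more apart from anti-TCR (beside 10.2 percent of all genes): it fell (beside 5.34 percent), and 0 rose (beside 4.84 percent). With 1.5-fold 3 were higher (beside 13.8 percent) and 1 lower (beside 11.8 percent). Their median log2 ratio was 0.18, beside 0.03 for all genes. Ndufa12, an accessory subunit added late in complex I assembly, read 237 with mock, 262 with anti-TCR, 80.8 with CSA, 249 with PKCi and 228 with Combo. The CSA array was the only one that departed, 3.25-fold under anti-TCR, and the gene's level is near the minimum, since at 8 times the chip median it was no longer measured. The highest ratios with CSA were those of Atp5d (0.70), Ndufb9 (0.68) and Ndufb10 (0.67), and Sdhb, Sdhc and Sdhd of complex II gave 0.57, 0.55 and 0.46. In complex III the range ran from Uqcrq (-0.31) to Uqcrh (0.40), and in complex IV from Cox7a2 (-0.10) to Cox7a2l (0.55).

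In the PKCi arm 0 of 56 members rose (beside 14.3 percent of all genes) and 0 fell (beside 9.75 percent), 24.0 percent of genes being that far apart in either direction. With 1.5-fold 9 were higher (beside 25.6 percent) and 3 lower (beside 19.6 percent). The members lay closer together than the measured genes did as a whole, with quartiles of -0.19 and 0.52 beside -0.45 and 0.60. Their median was 0.12, beside 0.03. Cox7a2l (0.97), Ndufb10 (0.93), Ndufa13 (0.87) and Ndufa3 (0.85, f-suffixed) read highest against anti-TCR. At the other end were Ndufb6, a membrane arm subunit (-0.67), Cox7a2 (-0.64, but 0.11 on its second probe set) and Atp5o (-0.60), the link between the stalk and the head of ATP synthase. In complex III, Uqcrc1 (0.60) was highest and Uqcrq (-0.44) lowest, and in complex II, Sdhc (0.50) and Sdhd (0.01).

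In the Combo arm 3 of 58 members rose (beside 7.95 percent of all genes) and 3 fell (beside 5.46 percent), 13.4 percent of all genes being that far apart in either direction. With 1.5-fold 11 were higher (19.0%, beside 19.2 percent) and 5 lower (beside 14.6 percent), so none of these shares exceeds the background. Their median was 0.15, beside 0.02. Uqcr11, a small complex III subunit, read 127 with mock, 50.7 with anti-TCR, 129.5 with CSA, 145 with PKCi and 254 with Combo. It rose at least 4.98-fold over anti-TCR, whose value lay under the chip median, and it counts as measured through the Combo array alone. Ndufb10 rose 2.48-fold and Cox7a2l 2.32-fold over anti-TCR, both to near their mock values. Ndufs1, the largest core subunit of complex I, read 351 with mock, 262 with anti-TCR, 299 with CSA, 282 with PKCi and 107 with Combo. It fell 2.46-fold under anti-TCR in the Combo arm, with a second probe set on chip A at -0.61 where the first gave -1.30. Atp5md, a small membrane subunit of ATP synthase, read 1909, 1717, 1409.9, 1472 and 799 (f-suffixed), 2.15-fold lower with Combo than with anti-TCR. Ndufb2 fell 2.19-fold (r-suffixed, -0.45 on its second probe set), which brought it to its mock level. Complex IV read lower in this arm, with 6 of 10 genes below 0 and a median of -0.24, while complex I had 21 of 28 above 0 and a median of 0.32; the difference between the complexes was not tested.

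Set against mock, which these ratios share, every stimulated arm read lower over the members. The median was -0.39 for anti-TCR, -0.23 for CSA, -0.24 for PKCi and -0.31 for Combo, beside -0.08, -0.07, -0.05 and -0.06 for all genes. The CSA, PKCi and Combo arms read below mock in 39 of 58, 43 of 57 and 42 of 59 measured members (67.2%, 75.4% and 71.2%). Of all measured genes 55.5%, 53.9% and 53.9% did so. Complex I had medians of -0.42, -0.33 and -0.28 in the CSA, PKCi and Combo arms. Past 2-fold from mock were 0 higher and 1 lower with CSA (beside 8.67 and 7.81 percent of all genes, 16.5 in either direction), 1 and 1 with PKCi (beside 6.90 and 3.55 percent, 10.4 in either direction) and 2 and 4 with Combo (beside 8.39 and 6.01 percent, 14.4 in either direction). The mock array was the highest of the 5 for 31 of 60 members, beside 27.0% of 6337 genes that reached the minimum. The anti-TCR array was the lowest for 28 of 60, beside 29.6%. The Combo array came next, as the lowest for 14 members, beside 15.1% of those genes. Over the 5 treatments the highest value of a member was 1.68 times its lowest in the median (1.89 times for all genes). Of the 60 members 44 stayed within 2-fold throughout, beside 3540 of 6337 genes.

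**Figure D3:**
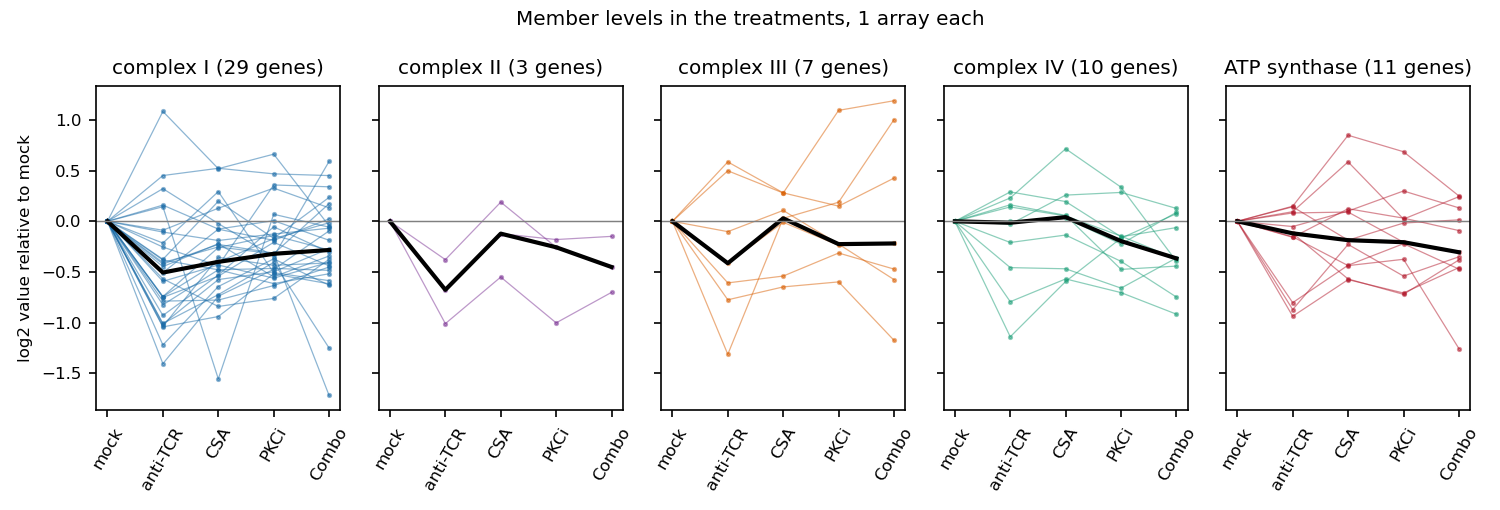
Log2 value of each of the 60 members relative to its own mock value (thin lines, 1 gene each) and the median of each complex (black) for the 5 treatments, with values under the chip median raised to it. With anti-TCR the black line stands at -0.51 for 29 complex I genes and at -0.01 for 10 complex IV genes, and with Combo at -0.28 and -0.37.

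The other genes of mitochondrial metabolism came from lists written with earlier results of these data known. Tricarboxylic acid cycle and pyruvate dehydrogenase genes feed electrons to the chain. Of 13 measured 10 read lower with anti-TCR, 2 fell (15.4%, beside 13.9 percent of all genes) and 0 rose (beside 11.4 percent), with a median of -0.21, nearer to that of all genes (-0.08) than to that of the chain genes (-0.39). Suclg1, a succinyl-CoA ligase subunit, fell 2.59-fold (367 to 142) and Idh3g, of isocitrate dehydrogenase, 2.04-fold (268 to 131), while Suclg2 read 0.80 (i-suffixed). Mitochondrial ribosomal protein genes had 22 of 35 lower, 1 fall (Mrps21, 2.19-fold) and 3 rises (2.86% and 8.57%, both under the background), with a median of -0.15. Mrps6 rose 5.28-fold, Mrps30 2.26-fold and Mrpl57 2.03-fold. Assembly factors outside the Nduf names had a median of -0.13 over 17 genes, with Sdhaf1 (f-suffixed) 2.47-fold lower and Cox11 (r-suffixed) at least 4.38-fold higher. Second probe sets kept these directions but not the size, with -0.38 for Sdhaf1 and 0.74 for Cox11 on the log2 scale.

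Protein import, chaperone and protease genes of the mitochondrion mostly read higher with anti-TCR. Of 16 measured with anti-TCR 14 read higher, 5 rose (31.2%, beside 11.4 percent of all genes) and 1 fell (6.25%, beside 13.9 percent), with a median of 0.83. Tomm40, the channel of the outer membrane (4.00-fold, r-suffixed), Hspa9, the matrix Hsp70 (3.85-fold, 424 to 1634.5), Phb2 (3.34-fold), Timm50 (3.18-fold) and Grpel2 (2.29-fold, r-suffixed) rose, and Tomm7 fell 2.06-fold. Second probe sets gave 2.50 for Tomm40 and 2.05 for Phb2 on the log2 scale. Glycolysis genes had 9 of 11 higher, 5 rises (45.5%) and 1 fall (9.09%), beside the same 11.4 and 13.9 percent, with a median of 0.95. Pgam1 rose 5.42-fold, Pfkp 4.58-fold (g-suffixed), Tpi1 3.96-fold, Pkm 2.23-fold (f-suffixed) and Pgk1 2.00-fold. Pdk1, a kinase that inhibits pyruvate dehydrogenase, fell 2.83-fold. In the PKCi arm 6 of 12 glycolysis genes and 6 of 16 import genes fell under anti-TCR (beside 9.75 percent of all genes), against 0 of 56 chain members; the difference between these lists was not tested. Among those import genes Tomm40, gave -2.73 on its r-suffixed probe set and -0.79 on the second. Of the small list of cytochrome c, carriers and partners 7 were measured (median 0.34). Its Gpd2, which passes electrons from glycerol phosphate to ubiquinone, rose 3.73-fold with anti-TCR over mock. Under anti-TCR it fell 2.20-fold with CSA, 4.58-fold with PKCi and 2.20-fold with Combo. Gpd2 read 249.6 with mock, 423.4 with CSA, 203.0 with PKCi and 422.3 with Combo. Higd2a fell 2.15-fold with anti-TCR against mock.

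Among regulators of mitochondrial gene expression, 8 were measured with anti-TCR, 2 of the 8 fell (beside 13.9 percent of all genes) and 0 rose (beside 11.4 percent), with a median of -0.48. Yy1 read 481 with mock, 125.0 with anti-TCR, 182 with CSA, 456 with PKCi and 225 with Combo. It fell 3.85-fold, and with PKCi it was near its mock level. Gabpa read 281, 111, 186, 209 and 164 in the same order and fell 2.53-fold with anti-TCR. Each of these 2 was read on 1 bright probe set. Nrf1 read 521 with mock and 489.9 with anti-TCR, and 185 with Combo, where a second probe set gave 482. The regulators were read on the same RNA pools as the chain genes, and any link between their levels and those of the chain genes was not tested.

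**Figure D4:**
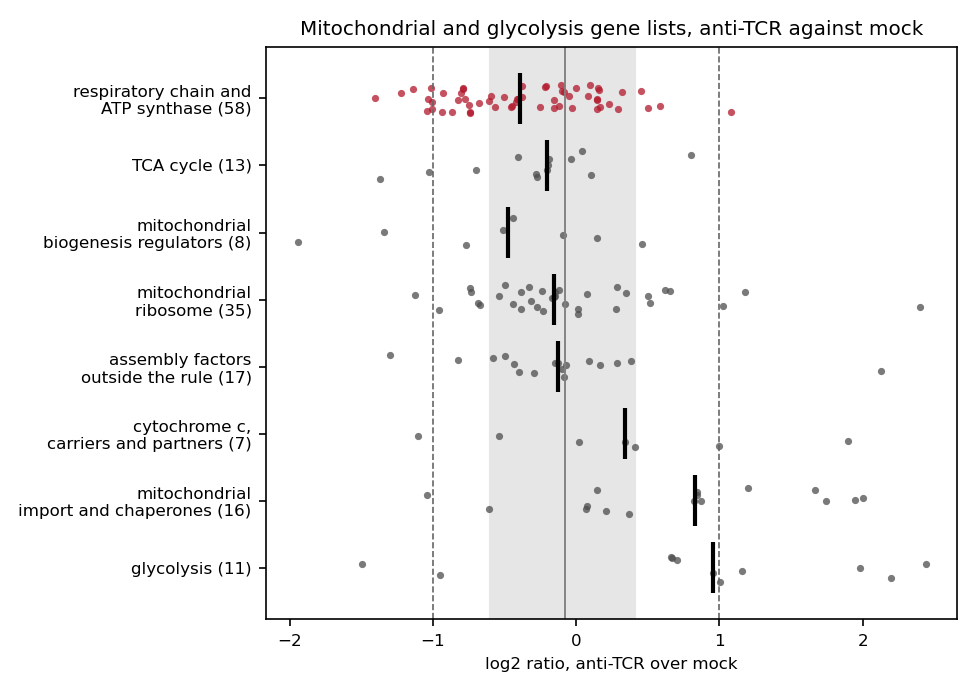
Log2 ratio of anti-TCR over mock for measured genes of the respiratory chain and ATP synthase (red) and of the other lists (grey), with the number measured in brackets. Black bars are medians, the grey band and line the quartiles and median of all measured genes and dashed lines 2-fold; the chain median is -0.39, import and chaperones 0.83 and glycolysis 0.95, and points are spread vertically at random within a list.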

How the data were processed

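Array intensity values were used as deposited by the authors; these are on a linear scale, and any scaling is not given in the sources used. Groups came from the array titles. Gene symbols came from GEO's platform annotation; 16 probe sets with several symbols, 1 of them matching, were left out of the members. Each gene was read on its brightest probe set, values were floored at the chip median, the minimum was 4 times it and the size rule 2-fold, as in an earlier analysis of these data. The members and all lists were chosen with earlier results of these data known. Genes named are those past 2-fold, the highest and lowest of a complex or list, the isoform families, and further members in the account of their complex; promoters were chosen after the values were seen. Alternatives were 2 scalings, 2 probe set rules, 2 floors and a higher minimum; a 1.5-fold rule was added after seeing the data. Python 3.11.15, pandas 2.3.3 and numpy 2.4.6 were used.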

Additional observations from a re-analysis of the deposited data

How the results depend on the processing

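No paired analysis was possible because every treatment was hybridised once to a chip type, with no replicate numbers. The members' median log2 ratio kept its sign in all 4 comparisons under the 7 alternatives: -0.41 to -0.31 for anti-TCR against mock, 0.14 to 0.18 for CSA, 0.09 to 0.16 for PKCi and 0.13 to 0.23 for Combo, each against anti-TCR. With median scaling the members 2-fold apart with anti-TCR dropped from 9 to 5. At 8 times the chip median as minimum, fewer genes are measured, and the counts became 0 of 38 for CSA (from 1) and 3 of 35 for Combo (from 6). With 1.5-fold the counts were 24 for anti-TCR, 4 for CSA, 12 for PKCi and 16 for Combo. The floor of 0.5 or 2 times the chip median cannot change a call by construction. Of 748 alternative values of the 31 members named by the rule, 9 lost the 2-fold size. Reversal was looked for only in ratios 2-fold or more apart, of which 0 reversed. Sign changes of smaller ratios were not counted. Under median scaling the size was lost by Ndufa7, Ndufb9, Ndufs4, Sdhd (also with quantile normalization) and, with Combo, Atp5md. Under the geometric mean of probe sets it was lost by Ndufb2 (both calls) and by Ndufs1 with Combo. The cause was not tested. Single arrays of pooled RNA limit every value, and signal near the minimum is least sure.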

Other observations

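Probe sets annotated with several symbols, 1 of them of the respiratory chain or ATP synthase, belong to no member. There were 16, of which 7 reached the minimum, and 6 of these 7 read lower with anti-TCR than with mock. The probe set shared by Ndufs5 and a pseudogene read 359 with mock, 139 with anti-TCR, 235 with CSA, 183 with PKCi and 186 with Combo (log2 ratio -1.37 with anti-TCR). Of 4 probe sets shared by Ndufs6 and Ndufs6b, the 2 that reached the minimum read lower with anti-TCR, at -1.05 and -0.94, and of the dim ones 1 read 139 with mock and 142 with anti-TCR. The one shared by Atp5c1 and its pseudogene gave -1.15, beside -0.94 on the probe set of Atp5c1 alone. For Ndufab1 and its pseudogene the shared probe set gave -0.70, whereas the probe set of Ndufab1 alone gave 0.45. The 2 probe sets shared by Cox7c, a complex IV subunit gene, and Gm12338 disagreed, with 0.08 on one (3029 and 3201) and -1.22 on the other (3197 and 1375.5).

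Just outside the minimum for members lay Ndufaf4 (3.91 times its chip median at most), a complex I assembly factor that read 187 with mock, 271 with anti-TCR, 244 with CSA, 243 with PKCi and 211 with Combo, and Ndufa10 (3.66 times). Just inside lay Atp5e (4.04 times) and Ndufaf3 (4.05 times), which read 239, 184, 274, 213 and 281 in the same order.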
